A study of Mus musculus with 27 samples.

Results

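The 3 RNA libraries of ND1-transduced mouse microglia taken at day 7 were set against the 3 RNA libraries of cultured cortical neurons, across all genes. These are 6 of the 15 RNA libraries, and of the 27 samples, of a series on microglia that were made to express ND1 in culture. The libraries were grouped by their labels, with earlier results of these data known, and every one of the 24293 gene symbols listed in the tables was read. Of these, 13602 reached 1 FPKM (sequenced fragments of a gene divided by its transcript length in kilobases and by the number of fragments mapped in that library) in at least 3 of the 15 libraries and were tested. The comparison asks how close the RNA of the induced cells came to that of neurons from the same tissue.

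All cells came from the cortex of wild-type C57BL/6 mice at postnatal day 1, per the labels. For the ND1 day 7 group, primary microglia received an ND1 lentivirus and a second lentivirus carrying M2rtTA (the activator that doxycycline switches on), with polybrene in the medium. They were then moved to a neuronal medium of Neurobasal and B27 with BDNF, GDNF and NT3, and doxycycline was given a single time. The neurons grew in Neurobasal with B27, for which the labels state no added neurotrophic factor and no culture age. Control microglia, also given where they help to read a value, had no ND1, and their medium is not stated. The labels do not spell out ND1, give no culture of origin for each replicate, and describe no purification of the converted cells. The p-values therefore measure the spread between these libraries, which may be technical. In such bulk RNA, fewer cells of a type and less RNA per cell cannot be told apart.

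Microglia are the resident macrophages of the brain and arise from the yolk sac, whereas cortical neurons arise from radial glia of the neural tube. A newborn neuron first expresses cytoskeletal and adhesion genes of migration and axon growth, and only later the channels, receptors, peptides and calcium-binding proteins of a firing cell. Proneural basic helix-loop-helix factors stand at the start of that programme, and calcium entry during firing switches on immediate early genes such as Fos and peptide genes through cAMP response elements.

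FPKM sums were 429013 to 483402 per library, and 11634 to 12092 genes reached 1 FPKM. The files hold no read counts, so the depth behind a value is unknown. From the spacing of the lowest values, 1 read was worth 0.908 to 1.04 times as much as in ND1 day 7 replicate 1, which is a relative measure from the weakest genes only. Replicates correlated at 0.982 to 0.984 in ND1 day 7 cells and at 0.979 to 0.983 in neurons across the tested genes, and the groups with each other at 0.898 to 0.909. A pair of rows stood higher and varied more in neurons. Rn45s, the ribosomal RNA precursor, gave 191, 192 and 175 FPKM in ND1 day 7 cells and 1504, 2294 and 3437 in neurons, and Lars2, a mitochondrial leucyl-tRNA synthetase gene, gave 92.2, 91.6 and 91.7 and 742, 1155 and 1573. Neuron replicate 3 was the highest and replicate 1 the lowest of the neuron libraries in both rows. The part of these rows in other differences was not tested.

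The labels were checked against defining markers. Of 6 neuronal markers, all were above 1 FPKM in every library of both groups, and their summed level was 3192 to 3235 FPKM in ND1 day 7 cells, 2374 to 2595 in neurons and 15.8 to 20.7 in control microglia at day 7. The 8 microglial markers summed to 280.3 to 370.4 FPKM in ND1 day 7 cells, 16.0 to 17.4 in neurons and 7150 to 7397 in control microglia. In neurons 5 of the 8 were under 1 FPKM in every library, and in ND1 day 7 cells 1 was (Tmem119, 0.138, 0.175 and 0.232 FPKM). Of the neuronal markers Tubb3 was higher in ND1 day 7 cells than in neurons, Snap25 and Syt1 were lower, and Map2, Rbfox3 and Stmn2 were not called. All 7 tested microglial markers were higher.

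Between the groups, 991 genes were higher in ND1 day 7 cells (7.29% of those tested) and 849 were lower (6.24%), at a Benjamini-Hochberg adjusted p under 0.05 in limma and a change of at least 1 on the log2(FPKM + 1) scale, which understates the change of weakly expressed genes. Together 13.5% of tested genes were called. The shares of 7.29% and 6.24% stand beside the counts of every list below. The median change of all tested genes was 0.06, with 5th and 95th percentiles of -1.14 and 1.31, and 8631 genes (63.5%) differed by less than 0.5. With the p-value alone, 5650 (41.5%) and 4565 (33.6%) would be called, and the ranges of the 3 and 3 libraries did not overlap for 78.1% of genes, so the size of a change says more here than its p-value.

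The genes on the higher and lower sides differed in their level in control microglia, which do not enter the contrast. Of the 991 higher genes, 736 (74.3%) had a control day 7 mean of at least 10 FPKM, against 45.9% of all tested genes, and 106 (10.7%) were under 1 FPKM in every control library. Of the 849 lower genes, 149 (17.6%) had a control day 7 mean of at least 10 FPKM, and 470 (55.4%) were under 1 FPKM in every control library, against 15.4% of all tested genes. Among the 2094 tested genes under 1 FPKM in every control library, which leave out transcripts of the starting cells, 106 were higher (5.06%) and 470 lower (22.4%). Such a gene was tested only if enough ND1 or neuron libraries reached 1 FPKM. The filter on low values thus partly sets these shares, and also the contrast of 55.4% with 15.4%. With no filter on low values the counts were 107 higher and 476 lower. The median higher gene stood at 7.62 FPKM in ND1 day 7 cells, 1.07 in neurons and 43.1 in control microglia. The median lower gene stood at 3.52 FPKM in ND1 day 7 cells, 12.7 in neurons and 0.471 in control microglia.

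**Figure D1:**
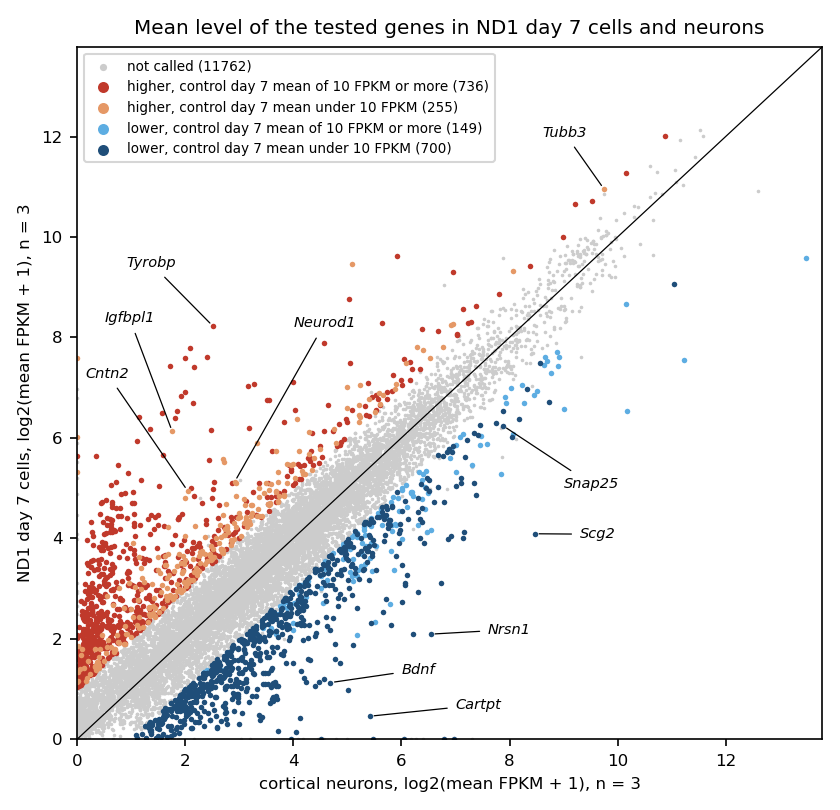
Mean level of each tested gene in cortical neurons (x axis) and ND1 day 7 cells (y axis), both as log2(mean FPKM + 1) over 3 libraries, with points coloured by call and by the control day 7 level. Most red points, the 736 higher genes with a control day 7 mean of at least 10 FPKM, lie at low neuron levels, and the 849 lower genes reach from weak to strong neuron levels.

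Most of the listed pan-neuronal cytoskeleton and RNA-binding genes were expressed in ND1 day 7 cells within the fold threshold of the neuron level. Of 26 such genes tested, 3 were higher, 0 lower and 23 not called, and the list median was a change of 0.19. In every ND1 day 7 library 1 of the 26 was under 1 FPKM, against 0 in neurons. Under quantile normalization or a pseudocount of 0.1, 1 member was lower. Tubb3, the neuronal beta-tubulin (mm10 chromosome 8, 123411553 to 123422015), gave 2031, 1958 and 1974 FPKM in ND1 day 7 cells, 771, 887 and 915 in neurons and 4.77, 4.27 and 6.48 in control microglia at day 7. Every ND1 library exceeded every neuron library by more than 2-fold, with a log2 change of 1.22 (SE 0.12, limma adjusted p = 4.56e-07). Dcx, a microtubule-associated protein of migrating neurons, was higher by 1.35 (SE 0.11, limma adjusted p = 6.77e-08), at 195, 232 and 215 FPKM against 96.9, 80.3 and 73.5. Nefm, the medium neurofilament chain, was higher by 1.59 (SE 0.06, limma adjusted p = 1.54e-11), at 43.0, 43.7 and 43.2 FPKM against 13.8, 13.8 and 13.4. The other members differed less. Map2, the dendritic microtubule protein, gave 184, 199.6 and 190.0 FPKM in ND1 day 7 cells and 174, 155 and 146 in neurons, Rbfox3, the splicing factor known as NeuN, gave 20.6, 21.2 and 21.3 and 22.6, 24.4 and 22.6, and Stmn2, a tubulin-binding protein of growth cones, gave 868, 882 and 871 and 1011, 1059 and 1149. Their changes of 0.27, -0.13 and -0.29 did not pass the threshold.

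Most neuron-enriched genes lay between 50% and 200% of the neuron level in ND1 day 7 cells, with far more genes below that range than above it. A total of 606 genes had at least 10 FPKM in neurons and under 1 FPKM in every control library. Their median level in ND1 day 7 cells was 68.8% of the neuron mean, with quartiles of 42.5% and 103%, and the 3 ND1 libraries gave medians of 68.0%, 68.6% and 69.1%. Of these genes 374 lay between 50% and 200% of the neuron level, 211 lay under 50%, 29 of them under 10%, and 21 lay over 200%. Of the 606, 188 were called lower and 20 higher, beside 6.24% and 7.29% of all tested genes. A gene picked for a high neuron level is more likely to be lower elsewhere. For the 476 genes picked in the same way for at least 10 FPKM in ND1 day 7 cells, the median was 100.4% of the neuron level, with 60 genes under 50% and 61 over 200%, and 0 over 1000%.

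**Figure D2:**
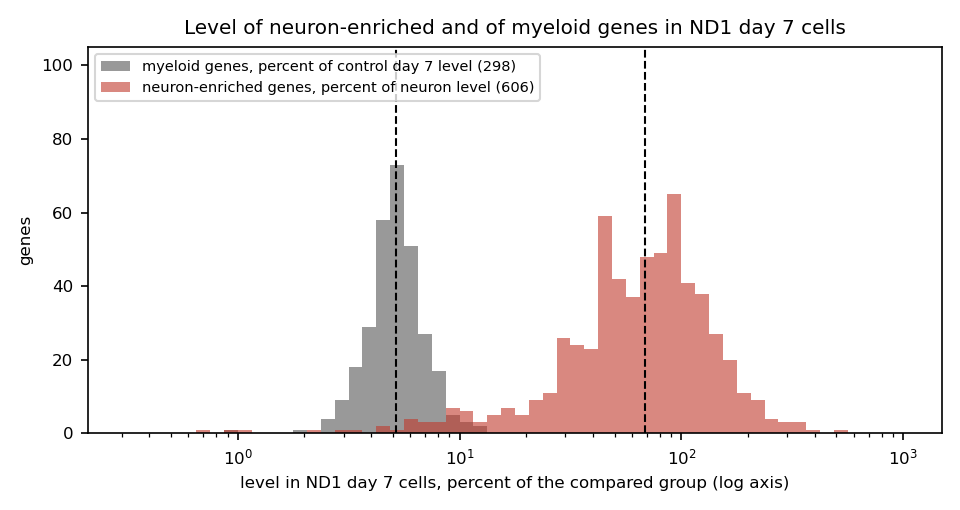
Number of genes (y axis) by their mean level in ND1 day 7 cells as a percent of the compared group (x axis, log scale), for 606 neuron-enriched genes against neurons and 298 myeloid genes against control microglia at day 7, with medians as dashed lines. The neuron-enriched genes spread around 68.8% with a tail under 10%, and the myeloid genes form a narrow peak around 5.15%. Genes at 0% are outside the axis.

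Several genes of newborn neurons were higher in ND1 day 7 cells than in neurons. Of 17 immature neuron genes tested, out of 25 listed, 8 were higher and 0 lower, with a median change of 0.82. The somatostatin receptor gene Sstr2 was below the neuron level (5.72 ± 0.399 against 11.97 ± 0.410 FPKM, a change of -0.95) without passing the threshold, and 1 member was lower under quantile normalization or a pseudocount of 0.1. Igfbpl1, a gene of newborn neurons (mm10 chromosome 4, 45809507 to 45826827), gave 68.7, 69.4 and 68.7 FPKM in ND1 day 7 cells, 2.53, 2.30 and 2.31 in neurons and 1.11, 1.47 and 1.38 in control microglia. It stood 29.0-fold above the neuron mean in a group whose 3 libraries nearly coincided, with a log2 change of 4.37 (SE 0.09, limma adjusted p = 1.23e-13). Sox11, a SoxC transcription factor of newborn neurons (mm10 chromosome 12, 27334268 to 27342718), gave 77.5, 87.7 and 81.3 FPKM against 18.6, 15.7 and 12.96 in neurons, a change of 2.32 (SE 0.10, limma adjusted p = 7.29e-11). Insm1, a zinc finger factor of neuronal progenitors, was higher by 1.95 with 7.14 ± 0.280 FPKM (SD, n = 3) against 1.11 ± 0.0256. Mex3a, an RNA-binding protein, was higher by 1.40 with 30.0 ± 0.312 against 10.7 ± 0.703. Sox4, the other SoxC factor of the list, gave 126, 118 and 121 FPKM against 72.4, 78.3 and 65.6, and Stmn1, a tubulin-binding protein, gave 3874, 3852 and 3937 against 2066, 2268 and 2489. Both were above every neuron library but short of the fold threshold, and the ranges were likewise apart for 78.1% of all tested genes.

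Of 21 neurogenic factors and their regulators 6 were higher and 0 lower, with a median of 0.67. The 6 were Neurod1, Neurod2, Neurod6, Myt1l, Id2 and Id3 (Neurod2 and Neurod6 are named after their values were seen, to complete the count), of which the Id proteins are known to inhibit basic helix-loop-helix factors. Neurod1, a proneural basic helix-loop-helix factor (mm10 chromosome 2, 79452637 to 79456636), gave 36.7, 32.6 and 32.5 FPKM in ND1 day 7 cells, 6.43, 6.79 and 6.38 in neurons and 1.33, 1.19 and 2.16 in control microglia at day 7. The ND1 libraries were all about 5 times as high as the neuron libraries, with a log2 change of 2.21 (SE 0.10, limma adjusted p = 2.37e-10). The labels do not say whether the ND1 lentivirus carries this gene. If it does, FPKM per gene cannot tell vector transcripts from those of the genomic locus, and their parts were not tested. Myt1l, a zinc finger factor that represses non-neuronal genes, gave 51.0, 53.3 and 51.9 FPKM against 17.6, 16.1 and 15.03, a change of 1.62 (SE 0.07, limma adjusted p = 9.19e-11). Id2 was higher by 1.19, with 165 ± 0.878 FPKM (SD, n = 3) against 72.2 ± 4.56 and 199 in control microglia, and Id3 by 1.83, with 6.73 ± 0.768 against 1.17 ± 0.0195 and 19.8.

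Of the 106 genes that were higher in ND1 day 7 cells and under 1 FPKM in every control library, the largest change among those of at least 10 FPKM belonged to Cntn2, an adhesion protein of growing axons (mm10 chromosome 1, 132509425 to 132543251). It gave 30.5, 29.3 and 29.6 FPKM in ND1 day 7 cells and 3.28, 3.13 and 2.95 in neurons, a change of 2.90 (SE 0.06, limma adjusted p = 1.08e-13). Every ND1 library was about 9 times as high as every neuron library. After it in order of size came Sox11, the Myc family factor Mycl (33.3 ± 0.504 against 6.67 ± 0.254 FPKM), the zinc finger gene Zfp462 (17.9 ± 0.246 against 3.50 ± 0.402), the corepressor Runx1t1 (11.6 ± 0.391 against 2.07 ± 0.265) and Kctd4 (11.8 ± 0.533 against 2.20 ± 0.306). Gpc2, a glypican of the developing nervous system, gave 68.6, 68.8 and 68.8 FPKM against 18.4, 18.8 and 18.0, Wnt7b, a Wnt ligand, gave 26.4, 26.6 and 26.3 against 7.72, 7.69 and 7.07, and Ntsr1, the neurotensin receptor of layer 6 corticothalamic neurons, gave 18.6, 17.8 and 18.3 against 4.90, 5.62 and 5.20. Their changes were 1.84, 1.69 and 1.63. The remaining genes of the first 12 were Serinc2, Lypd6 and Myt1l, with changes of 1.62 to 1.83.

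**Figure D3:**
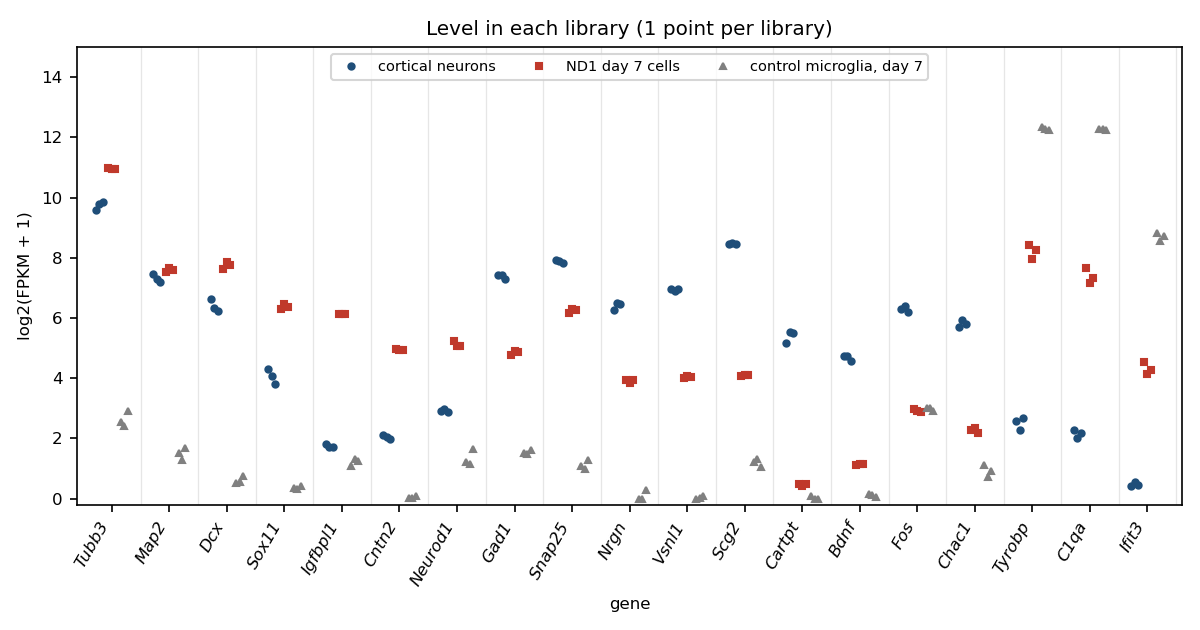
Level of named genes in each library as log2(FPKM + 1) (y axis), with 3 points each for cortical neurons (circles), ND1 day 7 cells (squares) and control microglia at day 7 (triangles). Sox11, Igfbpl1, Cntn2 and Neurod1 lie higher in ND1 day 7 cells than in neurons, Scg2, Cartpt, Bdnf and Fos lie lower, and Tyrobp, C1qa and Ifit3 lie between neurons and control microglia.

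Factors of the cortical layers were expressed in both groups, some more strongly in ND1 day 7 cells. Of 27 cortical excitatory layer factors tested, 5 were higher and 0 lower, with a median change of 0.62. Nfix, a nuclear factor I protein, gave 133, 129.9 and 129.9 FPKM in ND1 day 7 cells, 36.5, 39.5 and 33.8 in neurons and 5.46, 5.95 and 5.91 in control microglia. All ND1 libraries were above all neuron libraries, by 1.81 (SE 0.07, limma adjusted p = 2.11e-11). Ldb2, a LIM domain binding protein, was higher by 1.61 (33.5 ± 0.354 against 10.3 ± 0.578). Emx1, a factor of the dorsal telencephalon, gave 22.1, 21.3 and 21.9 FPKM against 14.2, 17.1 and 16.3 and did not pass the fold threshold. Of 61 factors that mark other neuronal regions, such as the Hox, Phox2 and Pou4 genes, 59 did not reach 1 FPKM in 3 libraries, and the 2 tested were not called.

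Several enzymes, transporters and peptides of inhibitory neurons were lower in ND1 day 7 cells. Of 28 cortical interneuron genes tested, 10 were lower and 1 higher, with a median change of -0.69. Gad1, the main enzyme of GABA synthesis (mm10 chromosome 2, 70561303 to 70602014), gave 26.4, 29.1 and 28.4 FPKM in ND1 day 7 cells and 171, 171 and 156 in neurons. The lowest neuron library was more than 5 times the highest ND1 library, a change of -2.53 (SE 0.06, limma adjusted p = 1.72e-13). Gad2, the other GABA-synthesising enzyme, fell by 2.20 (6.33 ± 0.284 against 32.7 ± 2.29 FPKM). The vesicular GABA transporter Slc32a1 fell by 2.16 and the peptide Vip by 2.52. Lhx6, a factor of interneurons from the medial ganglionic eminence, gave 18.5, 17.3 and 18.3 FPKM against 21.8, 23.0 and 22.3, and Dlx1, a factor of all ganglionic eminence neurons, gave 9.26, 9.84 and 9.92 against 11.6, 10.2 and 10.2. Both were within 0.3 of the neuron level on the log2 scale.

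Of 23 striatal projection neuron genes tested, 8 were lower and 1 higher, with a median of -0.23. The peptide precursors Tac1, Penk and Pdyn led the lower members, at 1.09 ± 0.0979, 3.54 ± 0.391 and 0.264 ± 0.0270 FPKM (SD, n = 3) in ND1 day 7 cells and 20.1 ± 0.982, 24.6 ± 1.15 and 3.51 ± 0.265 in neurons. The higher member, Ikzf1, is a factor of blood cells too, with 32.3 FPKM in control microglia. Among 11 tested transmitter identity genes 4 were lower and 1 higher. Slc17a6, a vesicular glutamate transporter, gave 6.23, 7.18 and 6.20 FPKM in ND1 day 7 cells and 13.1, 11.99 and 11.4 in neurons, and Nos1, the neuronal nitric oxide synthase, was higher by 1.55 (SE 0.05, limma adjusted p = 6.78e-12). Another 11 listed members, among them the cholinergic gene Chat, the dopaminergic genes Th and Slc6a3 and the serotonergic gene Tph2 (named for their roles), did not pass the filter on low values.

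Neuropeptides and granins, the cargo of dense-core vesicles, had the lowest median of all lists of at least 5 tested genes. Of 33 tested, 24 were lower and 1 higher, with a median change of -1.49. Among the 24 of them that have a promoter window in RefSeq, 5 (20.8%) held the cAMP response element TGACGTCA on either strand, against 387 of 10633 tested genes (3.64%) and 549 of all 27025 listed genes (2.03%). All 5 were lower in ND1 day 7 cells, as were most members of the list, and their windows are shown. In the immediate early and activity list, 2 of 21 windows (9.52%) held it, and not all of these genes were called lower. Whether the element has a part in the change was not tested. Windows run from 250 bases before to 50 after the annotated start, 5′ to 3′ on the gene's strand, in GRCm38.p6 (the mm10 build) from RefSeq, with the element in capitals. They lie at chr13:99900634-99900933 (minus strand), chr1:79439977-79440276 (minus strand), chr13:75089607-75089906 (plus strand), chr16:23890795-23891094 (minus strand) and chr2:132781392-132781691 (plus strand). The element begins 112 bases before the start in Cartpt, 68 in Scg2, 78 in Pcsk1, 48 in Sst and 72 in Chgb.
Cartpt: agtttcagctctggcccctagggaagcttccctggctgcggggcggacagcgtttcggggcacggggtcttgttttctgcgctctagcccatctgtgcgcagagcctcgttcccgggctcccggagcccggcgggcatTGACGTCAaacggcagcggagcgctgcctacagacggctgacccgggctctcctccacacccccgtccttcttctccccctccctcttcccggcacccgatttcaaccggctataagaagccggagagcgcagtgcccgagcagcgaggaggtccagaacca
Scg2: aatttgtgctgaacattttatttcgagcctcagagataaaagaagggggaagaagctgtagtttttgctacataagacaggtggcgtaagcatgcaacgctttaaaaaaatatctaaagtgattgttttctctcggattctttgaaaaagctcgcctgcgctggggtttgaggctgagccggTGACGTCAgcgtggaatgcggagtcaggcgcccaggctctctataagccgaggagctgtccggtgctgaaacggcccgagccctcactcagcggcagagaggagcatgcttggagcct
Pcsk1: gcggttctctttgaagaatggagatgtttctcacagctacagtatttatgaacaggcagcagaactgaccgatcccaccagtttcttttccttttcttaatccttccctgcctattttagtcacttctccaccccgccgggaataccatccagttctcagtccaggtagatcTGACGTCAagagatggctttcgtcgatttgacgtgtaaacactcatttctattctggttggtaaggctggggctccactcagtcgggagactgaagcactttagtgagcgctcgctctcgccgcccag
Sst: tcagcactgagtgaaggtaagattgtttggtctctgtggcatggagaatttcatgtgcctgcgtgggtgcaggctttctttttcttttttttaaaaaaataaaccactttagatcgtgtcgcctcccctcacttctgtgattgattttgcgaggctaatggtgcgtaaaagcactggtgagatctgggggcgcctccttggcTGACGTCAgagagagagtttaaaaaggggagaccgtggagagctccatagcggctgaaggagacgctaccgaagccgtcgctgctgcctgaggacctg
Chgb: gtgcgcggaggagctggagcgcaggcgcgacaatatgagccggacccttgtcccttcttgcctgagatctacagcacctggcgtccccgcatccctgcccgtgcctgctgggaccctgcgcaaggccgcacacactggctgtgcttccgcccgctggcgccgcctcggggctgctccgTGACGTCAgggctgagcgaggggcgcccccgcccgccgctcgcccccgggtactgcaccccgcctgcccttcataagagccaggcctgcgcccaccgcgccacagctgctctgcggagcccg

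Cartpt, the precursor of CART peptides (mm10 chromosome 13, 99898483 to 99910179), gave 0.410, 0.322 and 0.382 FPKM in ND1 day 7 cells and 35.1, 45.6 and 44.5 in neurons. All ND1 libraries were under 0.5 FPKM, and the change was -4.95 (SE 0.08, limma adjusted p = 1.34e-14). Scg2, secretogranin II (mm10 chromosome 1, 79434366 to 79440026), gave 15.9, 16.2 and 16.0 FPKM against 352, 362 and 347 in neurons and 1.33, 1.48 and 1.06 in control microglia. The groups were 22.1-fold apart with little spread in either, a change of -4.38 (SE 0.07, limma adjusted p = 1.34e-14). Pcsk1, a convertase that cuts prohormones, gave 1.35, 1.35 and 1.17 FPKM against 22.6, 23.1 and 22.1, a change of -3.37 (SE 0.09, limma adjusted p = 7.58e-13). Sst and Chgb, named here because their promoters hold the element, were the strongest of the 5 in ND1 day 7 cells. Sst, the somatostatin precursor, gave 552, 518 and 538 FPKM against 1813, 2248 and 2243, a change of -1.96 (SE 0.12, limma adjusted p = 4.69e-09), and Chgb, chromogranin B, gave 27.4, 26.5 and 27.0 against 75.5, 82.8 and 75.5, a change of -1.49 (SE 0.07, limma adjusted p = 2.54e-10). Tac1, the substance P precursor, whose window does not hold these letters, was lower by 3.33. The single higher member was Cbln1, a secreted synapse organiser, with 11.1 ± 0.726 FPKM (SD, n = 3) against 3.39 ± 0.222. Members with at least 10 FPKM that did not pass were Cbln2, Chga, Cpe and Scg3, with changes of -0.93, -0.90, -0.75 and -0.56.

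Synaptic genes were expressed in ND1 day 7 cells, in part at lower levels than in neurons, and 0 were called higher. Of 47 synaptic vesicle and active zone genes tested, 17 were lower and 0 higher, with a median change of -0.74. Of all tested genes 6.24% were lower, and of the 606 neuron-enriched genes 188 were. Snap25, a SNARE protein of vesicle fusion, gave 71.5, 77.0 and 75.3 FPKM in ND1 day 7 cells, 243, 234 and 227 in neurons and 1.14, 0.989 and 1.43 in control microglia. ND1 libraries were at about 32% of the neuron level, a change of -1.64 (SE 0.07, limma adjusted p = 1.39e-10). Syt1, the calcium sensor of release, gave 59.9, 63.6 and 60.8 FPKM against 153, 151 and 136, a change of -1.24 (SE 0.07, limma adjusted p = 1.18e-09). The largest decreases belonged to Syt13, Sncb (beta-synuclein), Sv2c and Sv2b, with changes of -2.52, -2.23, -2.11 and -1.97. Syn1, a phosphoprotein of the vesicle surface, gave 73.7, 74.2 and 74.5 FPKM against 124, 134 and 126 and missed the fold threshold.

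On the receiving side, 15 of 51 glutamate receptor and postsynaptic scaffold genes were lower and 0 higher, with a median of -0.53. This count is near the share of neuron-enriched genes called lower, 188 of 606. Nrgn, the calmodulin-binding neurogranin, gave 14.5, 13.3 and 14.2 FPKM in ND1 day 7 cells and 76.2, 89.0 and 87.8 in neurons, a change of -2.51 (SE 0.08, limma adjusted p = 5.32e-12). Cacng3, an auxiliary AMPA receptor subunit, was lower by 2.37, the secreted AMPA receptor clustering protein Nptx2 by 2.00 and the kainate receptor subunit Grik1 by 1.69. The scaffold Dlg4, known as PSD-95, gave 72.4, 73.6 and 73.1 FPKM against 108, 116 and 107, and Camk2b, a calcium/calmodulin kinase subunit, gave 164, 161 and 163 against 133, 138 and 133. Neither was called. Camk2b lay above the neuron libraries, where 78.1% of all tested genes had ranges that did not overlap.

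GABA and glycine receptor genes had 11 of 20 members lower and 0 higher, with a median of -1.03. The subunits differed among themselves. Gabrd, the extrasynaptic delta subunit, gave 0.697, 0.756 and 0.967 FPKM in ND1 day 7 cells and 8.41, 8.32 and 8.61 in neurons, a change of -2.39 (SE 0.06, limma adjusted p = 2.64e-13). Gabra5 fell by 1.78 and Gabrg1 by 1.45. Gabra2, an alpha subunit of early neurons, gave 49.3, 54.7 and 53.9 FPKM against 68.1, 60.5 and 58.6, and Glra2, the embryonic glycine receptor subunit, gave 14.8, 17.1 and 15.8 against 10.3, 9.72 and 8.99. Neither was called. Glra2 was above every neuron library, where 78.1% of all tested genes had ranges that did not overlap.

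Ion channels showed the same range. Of 33 sodium, calcium and related channel genes 10 were lower and 0 higher (median -0.40), and of 50 potassium channel genes 14 were lower and 0 higher (median -0.54). Beside these stand 6.24% of all tested genes called lower, 22.4% of those under 1 FPKM in controls and 188 of the 606 neuron-enriched genes. The channel counts are near the last of these shares. Nalcn, the sodium leak channel, gave 1.46, 1.52 and 1.52 FPKM in ND1 day 7 cells and 11.01, 10.1 and 9.20 in neurons, a change of -2.15 (SE 0.05, limma adjusted p = 4.7e-13). Scn1a, the sodium channel alpha subunit that increases after birth, gave 1.22, 1.20 and 1.10 FPKM against 8.50, 7.33 and 6.45, a change of -1.95 (SE 0.07, limma adjusted p = 1.06e-11), whereas Scn2a1, the alpha subunit of early neurons, gave 9.78, 10.6 and 10.0 against 17.2, 14.6 and 13.3 and was not called. Among potassium channels Kcnj4, an inward rectifier, led with 2.31, followed by Kcnip4, Kcna1 and Kcna6 with 1.72, 1.48 and 1.45 lower.

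Calcium-binding and signalling proteins of mature neurons followed, with 14 of 34 lower and 1 higher and a median of -0.92. Vsnl1, the calcium sensor visinin-like 1, gave 15.1, 15.9 and 15.6 FPKM in ND1 day 7 cells and 122, 117 and 122 in neurons, a change of -2.88 (SE 0.05, limma adjusted p = 4.13e-14). Rgs4, a regulator of G protein signalling, fell by 3.03, Thy1, a surface glycoprotein of mature projection neurons, by 2.96, and Pcp4l1, a calmodulin-binding protein, by 2.74. The higher member was Itpr1, the inositol trisphosphate receptor of the endoplasmic reticulum, with 26.4, 27.1 and 26.7 FPKM against 3.21, 2.97 and 2.70 and 7.42 in control microglia, a change of 2.81 (SE 0.09, limma adjusted p = 3.04e-12).

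Most activity-dependent genes were lower in ND1 day 7 cells, with 16 of 28 lower, 0 higher and a median change of -1.13. Fos, an AP-1 subunit switched on within minutes of firing, gave 6.78, 6.55 and 6.37 FPKM in ND1 day 7 cells, 77.3, 84.1 and 73.1 in neurons and 6.99, 7.03 and 6.46 in control microglia. ND1 day 7 cells thus stood at the control microglia level, and the change against neurons was -3.39 (SE 0.05, limma adjusted p = 1.34e-14). Npas4, a factor induced by calcium entry in neurons, gave 2.78, 2.54 and 2.66 FPKM against 32.5, 36.4 and 30.9, a change of -3.22 (SE 0.07, limma adjusted p = 1.27e-13). Gadd45g, a growth arrest gene, was lower by 3.13. Bdnf, the neurotrophin that firing neurons transcribe (mm10 chromosome 2, 109674700 to 109727043), gave 1.15, 1.20 and 1.20 FPKM against 25.7, 25.6 and 23.0, a change of -3.56 (SE 0.05, limma adjusted p = 1.04e-14). BDNF protein was in the medium of the ND1 cells and is not named in that of the neurons, so medium and cell type cannot be told apart here. Nr4a2, Jun, Jund, Dusp4, Atf3 and Homer1 were among those not called, and Nr4a2, which is also a deep-layer factor, stood at 14.4 ± 0.329 FPKM (SD, n = 3) against 8.80 ± 0.690.

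Within the neurotrophin and GDNF system, 3 of 9 tested genes were lower and 0 higher. Besides Bdnf these were the GDNF family receptors Gfra1 and Gfra2, lower by 1.47 and 1.16. Ntrk2, the BDNF receptor, gave 32.4, 33.7 and 32.6 FPKM in ND1 day 7 cells and 51.5, 48.9 and 44.0 in neurons, Ntrk3, the NT3 receptor, gave 12.3, 12.9 and 13.2 and 6.99, 6.83 and 6.46, and Ntf3, which encodes NT3, gave 11.2, 10.1 and 11.4 and 6.25, 6.97 and 7.36. No ND1 library of Ntrk2 reached the neuron range, and the order was the opposite for Ntrk3 and Ntf3, but no change reached the threshold. The 3 and 3 libraries were likewise apart for 78.1% of all tested genes.

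Most genes of the unfolded protein and integrated stress responses were lower in ND1 day 7 cells. Of 28 tested, 20 were lower and 1 higher (Nupr1, a stress factor that control microglia also express, with 107 FPKM there), with a median of -1.26. Chac1, a glutathione-degrading enzyme and ATF4 target (mm10 chromosome 2, 119351242 to 119354326), gave 3.87, 4.10 and 3.52 FPKM in ND1 day 7 cells, 51.4, 59.4 and 54.3 in neurons and 1.18, 0.658 and 0.881 in control microglia. The neuron libraries were at least 10 times as high as the ND1 libraries, a change of -3.54 (SE 0.09, limma adjusted p = 4.36e-13). Sesn2, a stress-induced sestrin, gave 4.05, 4.11 and 3.94 FPKM against 45.3, 46.7 and 42.3, a change of -3.18 (SE 0.06, limma adjusted p = 6.29e-14). The secreted glycoprotein Stc2 fell by 3.10 and Herpud1, a part of endoplasmic reticulum-associated degradation, by 2.03. Xbp1, the factor spliced by IRE1, gave 51.3, 51.0 and 52.7 FPKM against 80.5, 83.6 and 90.3 and did not pass. Slc7a3, a cationic amino acid transporter outside the list, was among the 12 largest decreases, with 1.00, 1.02 and 0.909 FPKM against 29.5, 31.2 and 32.5, a change of -4.02 (SE 0.06, limma adjusted p = 1.12e-14).

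The other large decreases were spread over several functions. Nrsn1, a vesicle membrane protein of neurons (mm10 chromosome 13, 25252039 to 25269996), gave 3.13, 3.37 and 3.28 FPKM in ND1 day 7 cells and 93.4, 92.0 and 92.0 in neurons, a change of -4.46 (SE 0.08, limma adjusted p = 2.6e-14). Omg, a GPI-anchored myelin protein that neurons also make, gave 3.23, 3.32 and 3.20 FPKM against 75.2, 74.8 and 68.3, a change of -4.12 (SE 0.07, limma adjusted p = 1.35e-14). Hapln1, the link protein of perineuronal nets, gave 0.299, 0.387 and 0.339 FPKM against 19.4, 15.5 and 14.3, a change of -3.69 (SE 0.08, limma adjusted p = 1.17e-13). Tcap, Ostn and Ddn (dendrin, a postsynaptic protein) fell by 3.90, 3.54 and 3.35. DQ267102, a small nucleolar RNA, was listed at 0 in all 3 ND1 day 7 libraries and at 93.1, 179.6 and 101 FPKM in neurons. Ttr, the thyroid hormone carrier made by choroid plexus, was likewise listed at 0 in the ND1 libraries and at 16.2, 20.1 and 29.3 FPKM in neurons.

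Several axon guidance genes were higher in ND1 day 7 cells. Of 53 tested, 10 were higher and 3 lower, with a median change of 0.22. Of all tested genes 7.29% were higher and 6.24% lower, and the count of lower members is near that share. The plexins Plxna2 and Plxna4, semaphorin receptors, gave 38.4, 38.9 and 38.7 and 43.4, 43.7 and 43.1 FPKM in ND1 day 7 cells and 12.8, 12.3 and 11.1 and 16.1, 15.1 and 13.6 in neurons. They were higher by 1.61 and 1.48, and the ephrin receptor Ephb1 by 1.58. Cxcr4, the receptor of Cxcl12 on migrating neurons and on leukocytes, gave 9.59, 8.29 and 9.02 FPKM against 0.981, 0.872 and 0.851, with 67.9 in control microglia, a change of 2.39 (SE 0.05, limma adjusted p = 2.13e-13). The lower members were the secreted ligands Sema3e and Slit2 and the transmembrane semaphorin Sema6a, with changes of -2.24, -1.39 and -1.06. Among 42 adhesion and matrix genes 9 were lower and 3 higher (median -0.42). Acan, the aggrecan core protein of perineuronal nets, fell by 2.03, whereas Cdh2, N-cadherin, was higher by 1.42 (70.8 ± 0.638 against 25.8 ± 0.982 FPKM).

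**Figure D4:**
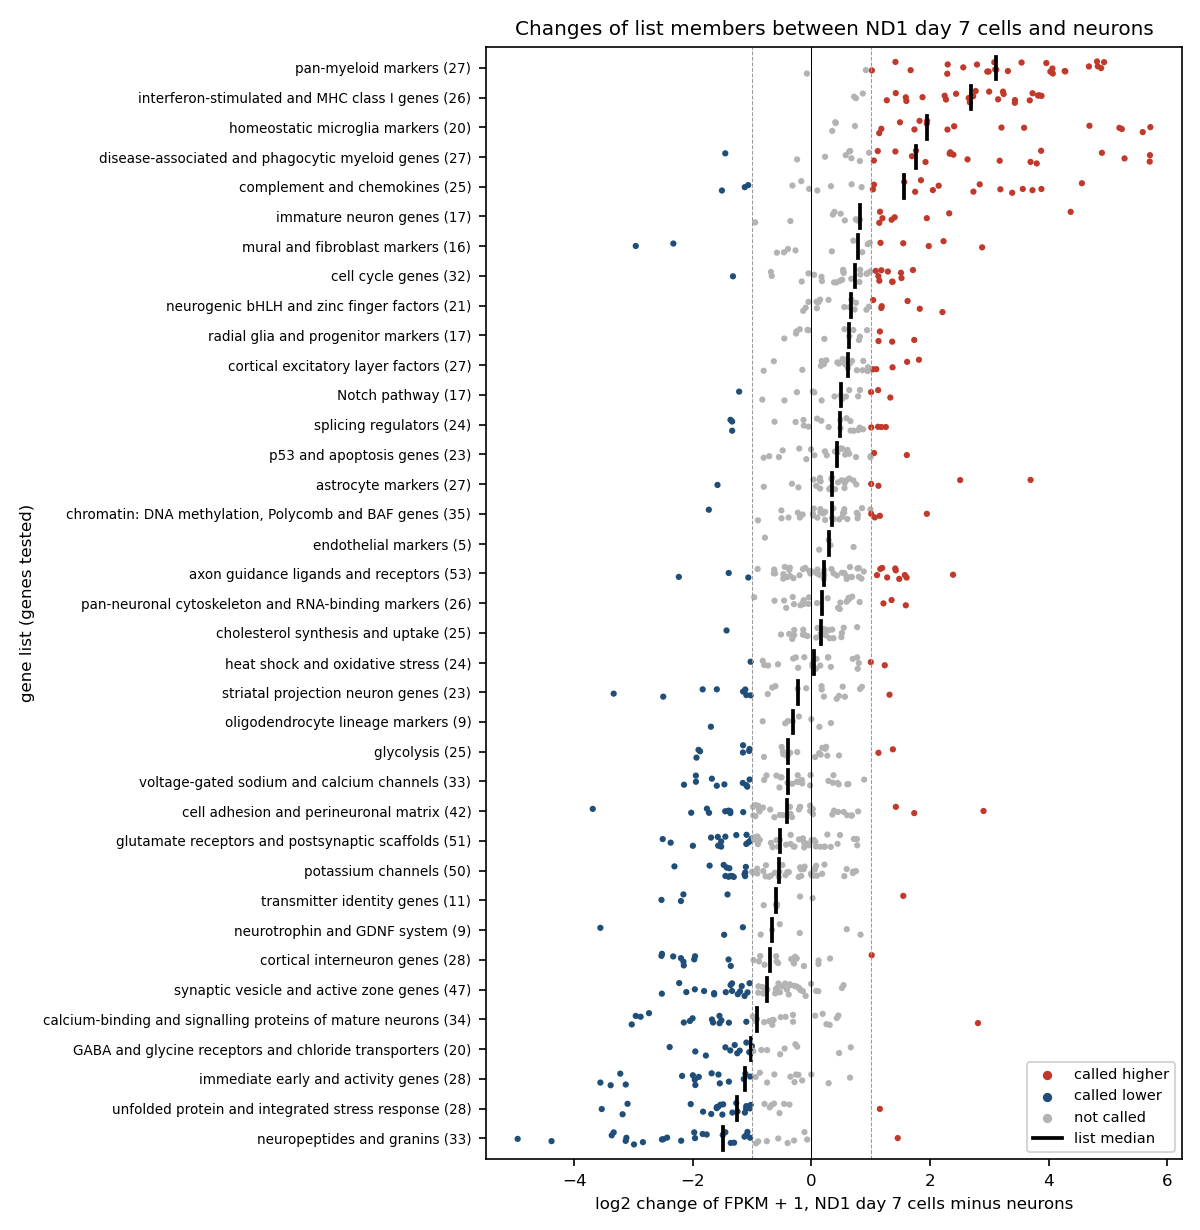
Log2 change of FPKM + 1 from neurons to ND1 day 7 cells (x axis) for the tested members of each gene list with at least 5 tested genes (y axis), with 1 point per gene and a black bar at the list median. Dashed lines mark changes of 1 and -1. Medians run from -1.49 for neuropeptides and granins to 3.12 for pan-myeloid markers.

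The largest increases over neurons were myeloid genes. Of 27 pan-myeloid markers 25 were higher and 0 lower (median 3.12), of 20 homeostatic microglia markers 16 were higher and 0 lower (median 1.95), and of 27 disease-associated and phagocytic genes 18 were higher and 1 lower (median 1.76). Tyrobp, the adaptor of Trem2 (mm10 chromosome 7, 30413782 to 30417582), gave 341, 250.4 and 304 FPKM in ND1 day 7 cells, 4.91, 3.81 and 5.35 in neurons and 5219, 4985 and 4892 in control microglia. ND1 libraries lay far above neurons and far below controls, and replicate 1 was the highest of them, as it was for the genes that follow. The change against neurons was 5.72 (SE 0.11, limma adjusted p = 4.13e-14). Lgals3, a galectin of phagocytes, gave 197, 146 and 170.3 FPKM against 2.39, 2.17 and 2.24, a change of 5.71 (SE 0.08, limma adjusted p = 1.04e-14). Ctss, a lysosomal protease, gave 248.6, 194 and 219.5 FPKM against 3.68, 2.97 and 3.08, a change of 5.71 (SE 0.09, limma adjusted p = 1.34e-14). C1qa, a subunit of the complement initiator C1q, gave 202, 143 and 161 FPKM against 3.85, 3.03 and 3.52, a change of 5.24 (SE 0.10, limma adjusted p = 4.13e-14). The rest of the 12 largest increases were C1qb, C1qc, Clec7a, Lgals3bp, Mpeg1, Gpnmb, Fcer1g and Ms4a7, with changes of 4.83 to 5.59.

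The myeloid transcripts stood at a small share of the control level, within a narrow range for most genes. Over 298 genes with at least 50 FPKM in every control day 7 library and at most 1% of that in neurons, ND1 day 7 cells gave a median of 5.15% of the control day 7 mean (quartiles 4.36% and 6.10%). The ND1 libraries gave 5.88%, 4.55% and 5.01%. The lowest and highest of the 298 genes were Cd5l at 0.997% and S100a1 at 13.3%, named after their values were seen. When the median share times the control day 7 mean was taken from each ND1 day 7 library, 401 genes were higher and 1041 lower than in neurons, so that 27.8% of called genes were higher in place of 53.9%. All 401 were among the 991, and all 849 lower genes were still called. The subtraction can only lower the ND1 values, so this outcome was largely set in advance. Under that subtraction 8 of the 27 pan-myeloid markers were higher and 5 lower (median -0.10), and 6 of the 20 homeostatic markers were higher and 3 lower (median 0.39). Of the disease-associated genes 5 were higher and 3 lower (median 0.17). The 298 genes include genes read here, such as Tyrobp, C1qa, Ctss, Ifit3 and B2m. The fall of the immune lists is thus built into the subtraction and is no separate result. The sign itself turned for C1qa (-2.16), for Ikzf1 (-0.0326) and Nupr1 (-0.0796) of the striatal and stress lists, and for Ifit3 (-0.18) of the next list, while Tyrobp, Lgals3, Ctss, B2m and Ccl5 lost their call without turning.

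**Figure D5:**
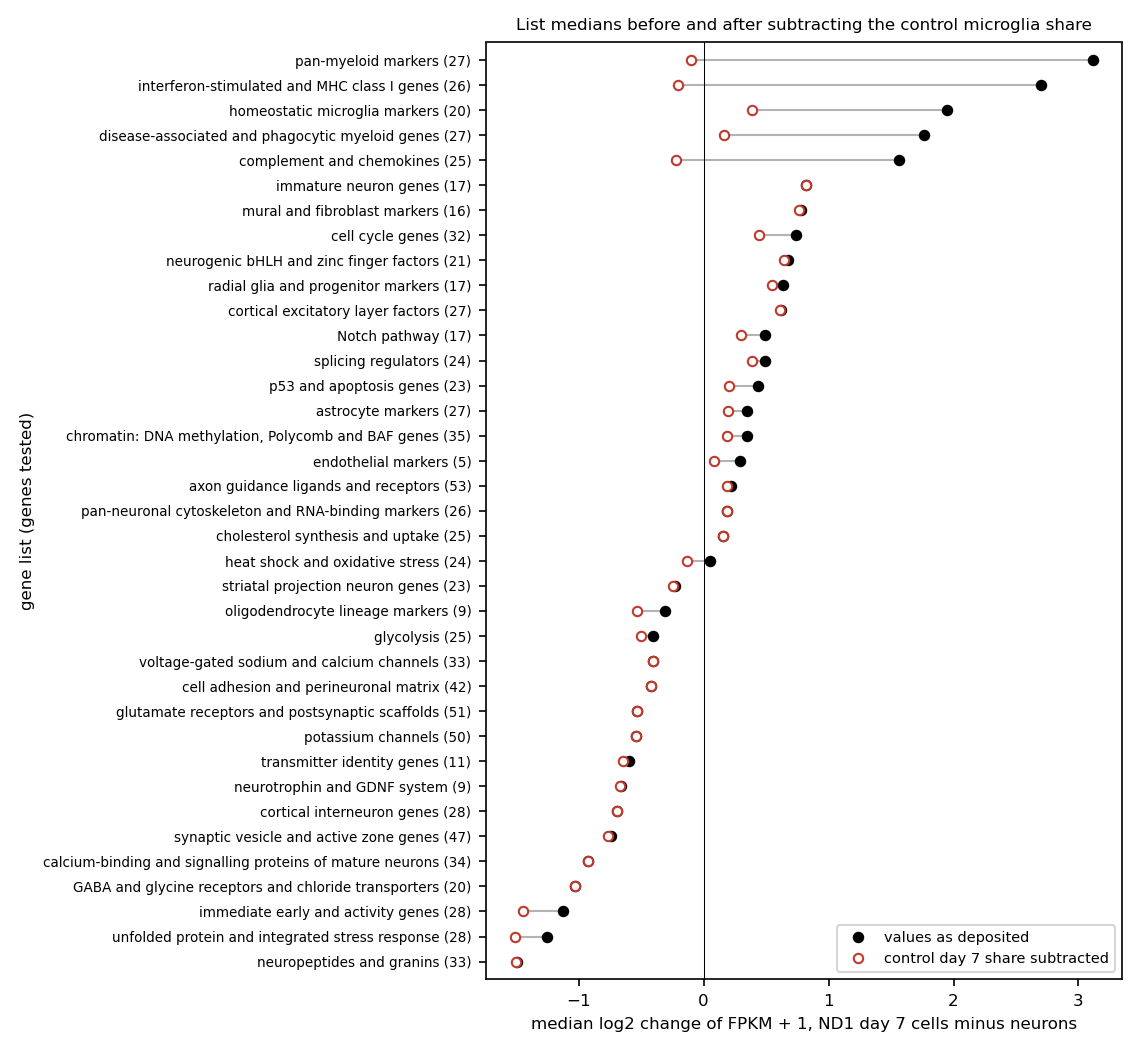
Median log2 change of FPKM + 1 from neurons to ND1 day 7 cells (x axis) for each list with at least 5 tested genes (y axis), from the deposited values (filled) and after the median share of control day 7 expression was subtracted from the ND1 libraries (open). The 5 immune lists at the top move from between 1.57 and 3.12 to between -0.22 and 0.39, while the pan-neuronal, immature neuron and synaptic lists move by less than 0.03 and the immediate early and activity list moves from -1.13 to -1.44. The subtraction takes away myeloid RNA by construction.

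Interferon-stimulated and MHC class I genes were higher in the same libraries. Of 26 tested, 23 were higher and 0 lower (median 2.70), and with the control share subtracted 2 were higher and 6 lower (median -0.20). Of the 18 with a RefSeq promoter window, 10 (55.6%) held the interferon response element (a pair of GAAA with any 2 bases between them) on either strand, against 3.95% of tested genes. The windows of Ifit3 and Isg15 are shown because they hold 2 and 3 such matches, overlapping in Isg15, which was chosen for its window. Both are given 5′ to 3′ on the gene's strand in GRCm38.p6 from RefSeq, at chr19:34583279-34583578 (plus strand) and chr4:156200769-156201068 (minus strand), with matches on either strand in capitals.
Ifit3: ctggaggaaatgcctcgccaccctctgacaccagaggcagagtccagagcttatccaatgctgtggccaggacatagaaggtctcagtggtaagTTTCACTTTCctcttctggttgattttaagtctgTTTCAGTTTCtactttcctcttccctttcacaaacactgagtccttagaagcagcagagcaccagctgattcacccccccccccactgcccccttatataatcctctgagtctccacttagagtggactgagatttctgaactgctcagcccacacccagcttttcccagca
Isg15: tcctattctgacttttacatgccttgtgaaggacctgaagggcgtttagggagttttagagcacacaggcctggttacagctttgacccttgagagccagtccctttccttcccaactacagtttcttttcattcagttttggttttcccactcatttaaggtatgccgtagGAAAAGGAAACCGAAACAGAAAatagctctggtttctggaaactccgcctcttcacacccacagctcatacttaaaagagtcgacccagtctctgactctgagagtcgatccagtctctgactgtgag

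Ifit3, an interferon-induced antiviral protein, gave 22.3, 16.5 and 18.2 FPKM in ND1 day 7 cells, 0.330, 0.451 and 0.374 in neurons and 449.7, 379 and 419 in control microglia, a change against neurons of 3.84 (SE 0.09, limma adjusted p = 1.6e-13). Isg15, a ubiquitin-like modifier, gave 24.8, 18.6 and 20.7 FPKM against 0.849, 0.948 and 1.41, a change of 3.43 (SE 0.11, limma adjusted p = 3.34e-12). B2m, the light chain of MHC class I, gave 509.6, 371 and 423 FPKM against 30.0, 31.9 and 32.8, a change of 3.73 (SE 0.10, limma adjusted p = 8.97e-13). For all 3 genes the ND1 libraries were above every neuron library, with replicate 1 the highest. Of 25 complement and chemokine genes 15 were higher and 3 lower (median 1.57), and 5 and 3 after the subtraction (median -0.22). Ccl5, a leukocyte chemokine, gave 97.6, 72.5 and 78.1 FPKM against 2.57, 2.69 and 2.30, and Cx3cl1, the neuronal ligand of the microglial receptor Cx3cr1, was lower by 1.51 (9.29 ± 0.305 against 28.3 ± 1.40 FPKM).

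Markers of further cell types were at low levels in both groups. The 8 astrocyte markers summed to 37.0 to 37.8 FPKM in ND1 day 7 cells and 22.6 to 23.7 in neurons (74.7 to 78.4 in control microglia), the 7 mural and fibroblast markers to 33.4 to 36.1 and 12.4 to 13.2, and the 7 radial glia and progenitor markers to 19.9 to 20.4 and 11.9 to 13.2. Oligodendrocyte lineage markers summed to 9.28 to 9.86 and 10.5 to 11.5 FPKM, and S100b, Olig2, Pdgfra, Cldn5 and Cdh5 were under 1 FPKM in all 6 libraries. From the longer lists, 4 of 27 astrocyte genes were higher and 1 lower, 5 of 16 mural and fibroblast genes higher and 2 lower, 4 of 17 radial glia genes higher and 0 lower, 1 of 9 oligodendrocyte genes and 2 of 3 ependymal and choroid plexus genes lower, and 0 of 5 endothelial genes were called. With the control share subtracted, 2 astrocyte genes were higher and 2 lower, and 0 oligodendrocyte genes were higher and 2 lower. Counts of the other lists named here did not change. Gfap, the astrocyte filament, gave 4.62, 4.55 and 4.73 FPKM against 1.68, 1.83 and 1.89, with 30.1, 23.3 and 23.7 in control microglia at day 7. Its change of 1.01 fell under the threshold without ND1 day 7 replicate 3 (0.997) or neuron replicate 1 (0.98). It also lost its call with the control share subtracted. Fn1, fibronectin, gave 14.1, 13.7 and 14.2 FPKM against 0.950, 1.15 and 1.01, with 3.68 in control microglia, a change of 2.88 (SE 0.19, limma adjusted p = 8.2e-09), and Col1a1, a collagen chain, was higher by 2.23. The part of these cell types in the other lists was not tested.

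Some cell cycle genes were higher at low levels, with 10 of 32 higher, 1 lower and a median of 0.74. Top2a, a topoisomerase of dividing cells, gave 2.49, 2.44 and 2.43 FPKM in ND1 day 7 cells, 0.384, 0.280 and 0.370 in neurons and 4.05, 4.03 and 4.05 in control microglia, and Mcm3, a subunit of the replicative helicase, gave 3.60, 3.79 and 3.88, 0.460, 0.461 and 0.431 and 17.0, 16.9 and 14.8. ND1 day 7 cells lay between neurons and controls in both, with changes against neurons of 1.36 and 1.71.

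Promoter features of the called genes were compared with those of all tested genes as a description. The cAMP response element was in 4.75% of the windows of lower genes (31 of 653), 0.396% of those of higher genes (3 of 758) and 3.64% of all tested genes, where the median GC content of the windows was 60.3%, 57.7% and 60.8%. Among genes under 1 FPKM in every control library it was in 3.70% of lower genes (13 of 351) and 2.89% of those not called (31 of 1073). The PU.1 core GAGGAAGT, bound by a myeloid factor, was in 9.81% of windows of higher genes with a control day 7 mean of at least 10 FPKM (57 of 581), 2.14% of lower genes and 3.76% of all tested genes. The interferon response element was in 11.7%, 4.44% and 3.95% of the same groups. The PU.1 core was in 1 of 21 windows of pan-myeloid markers (4.76%) and in 0 of 18 of interferon-stimulated and MHC class I genes. No share was taken over all genes with a control day 7 mean of at least 10 FPKM. Control level and call therefore cannot be told apart in these shares. The E-boxes CAGATG and CAGCTG, letters that basic helix-loop-helix factors bind, were in 16.0% and 20.0% of windows of higher genes under 1 FPKM in controls, 18.2% and 21.9% of lower genes under 1 FPKM in controls, 15.3% and 23.7% of genes under 1 FPKM in controls that were not called, and 13.7% and 18.1% of all tested genes. All motifs were searched on both strands. Among genes under 1 FPKM in controls, median genomic spans were 51.6 kb for the higher, 38.5 kb for the lower and 37.1 kb for those not called.

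CpG methylation near the start of these genes was read from 1 ND1 library and 1 control library, with no neuron library, no day in the labels and no replicate. Within 500 bases of the annotated start, the median methylation level in ND1 cells was 5.33% for higher genes with a control day 7 mean of at least 10 FPKM, 3.46% for higher genes under 1 FPKM in controls, 5.08% for lower genes and 2.06% for all 10482 tested genes with at least 5 measured CpG positions. The control library gave 5.10%, 3.62%, 4.96% and 2.07%, so the 2 libraries differed by less than 0.3 percentage points in each of these medians. Among genes under 1 FPKM in every control library, the ND1 medians were 3.46% for the higher, 6.81% for the lower and 5.05% for those not called. A median above that of all tested genes is thus not particular to called genes. Among single genes, Cartpt gave 8.57% in ND1 cells and 8.31% in controls, Scg2 12.2% in ND1 cells and 14.9% in controls, Cntn2 6.37% in ND1 cells and 5.89% in controls and Mpeg1 27.3% in ND1 cells and 25.7% in controls. Some genes were far more methylated. In ND1 cells 7.5% of higher, 6.82% of lower and 4.90% of all tested genes were at 50% or more. The share was 9.55% for uncalled genes under 1 FPKM in controls. Aif1, a microglial marker, gave 89.5% in ND1 cells and 81.4% in controls, over 11 CpG positions in each. Nos1 gave 81.7% in ND1 cells and 74.3% in controls, over 29 and 31. Ms4a7 gave 56.0% in ND1 cells and 53.5% in controls, over 14 and 12. Clec7a gave 58.9% in ND1 cells and 45.2% in controls, over 8 and 10. The files give no read counts per position, so the depth behind these values is unknown.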

How the data were processed

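Expression was measured by RNA-seq as FPKM per gene, deposited by the authors with 1 table per library. The submitters' processing notes name TopHat, Bowtie2, Cuffdiff and Cufflinks with mm10, without saying in which role. CpG methylation was deposited as a fraction per position for 1 ND1 and 1 control library; the tools behind it are not given in the sources used. No count test could be run on FPKM. Values were taken as log2(FPKM + 1), and a gene was kept if 3 or more of the 15 libraries reached 1 FPKM. limma 3.58.1 (R 4.3.3) fitted 5 group means with an intensity trend (10 residual degrees of freedom), and p-values were adjusted by Benjamini-Hochberg over 13602 genes. All 15 libraries share the estimate of the spread. A call needs an adjusted p under 0.05 and a log2 change of at least 1. The fit was tested on simulated data. Python 3.11.15 with pandas 2.3.3 made the summaries.

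The comparison, its members and the 39 gene lists were chosen with earlier results of these data known. Named genes are the 12 largest changes per direction with at least 10 FPKM in the higher group and non-overlapping libraries (names of small or predicted RNA genes left out), the same among genes under 1 FPKM in every control library, up to 4 members of each list per direction with its uncalled members of at least 10 FPKM, and the cell type markers. Others are said to be chosen afterwards. Samples were grouped by their labels. The alternatives tried were other scalings, filters, pseudocounts, fold thresholds, subtraction of the control share, each library left out, a replicate block and a wider methylation window. A total of 27 symbols altered into dates were not named, the ChIP-seq samples were not used, and some single genes are not reported here.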

Additional observations from a re-analysis of the deposited data

How the results depend on the processing

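Scaling by median ratios, no filter, no intensity trend and the 6 libraries alone left both counts within 1.5 times of 991 and 849. Quantile normalization gave 935 higher and 1045 lower, a share of higher calls of 47.2% against 53.9%. Subtraction of the control share gave 401 higher. It also turned 15 named genes negative, with log2 changes of -1.49 for Aif1, -5.91 for Apoe, -2.16 for C1qa, -1.98 for C1qb, -2.41 for C1qc, -0.22 for C3ar1, -0.62 for Ccl6, -0.40 for Csf1r, -0.85 for Fcer1g, -0.76 for Ifi27l2a, -0.18 for Ifit3, -0.0326 for Ikzf1, -1.03 for Irf7, -0.32 for Lfng and -0.0796 for Nupr1. It takes away myeloid RNA by construction. A filter of 5 FPKM tested fewer genes and left 300 lower genes under 1 FPKM in controls. A pseudocount of 0.1 gave 1737 higher genes, 179 of them under 1 FPKM in controls. With no fold threshold the counts were 5650 higher and 4565 lower, 564 and 1193 among genes under 1 FPKM in controls, and 830 list members. With a log2 threshold of 2 they were 286, 146, 13, 94 and 125. With a window of 1000 bases the ND1 methylation medians were 12.8%, 8.00%, 10.9% and 7.06%. Leaving out 1 library gave 944 to 1004 higher and 835 to 889 lower, 100 to 108 and 462 to 503 among genes under 1 FPKM in controls, 352 to 364 list members called in place of 360, and a myeloid share of 4.78% to 5.42%. Of 175 named called genes 140 kept their call under all 15 alternatives that tested them. Gfap, Lfng, Ptbp1, Txnrd1, Trp53inp1 and Mt3 lost it without 1 library.

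Same-numbered replicates of the groups deviated together at r = -0.025, 0.009 and 0.161. With 3 libraries per group these values cannot settle whether the numbers pair the libraries, and the labels give no culture of origin. The fit with the replicate block gave 992 higher, 850 lower, 106 and 470 among genes under 1 FPKM in controls and 360 list members, and it changed no call of a named gene. FPKM without counts give no depth, so no counting interval could be set on a weak gene.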

Other observations

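Of all tested genes 7.29% were higher and 6.24% lower in ND1 day 7 cells, beside which the counts of these lists are given. Of 25 cholesterol synthesis and uptake genes 0 were higher and 1 lower (median log2 change 0.16), the lower being Pmvk, phosphomevalonate kinase, at 64.9 ± 2.41 FPKM (SD, n = 3) in ND1 day 7 cells and 177 ± 12.2 in neurons. Of 25 glycolysis genes 2 were higher and 7 lower (median -0.40). Slc2a3, the neuronal glucose transporter, gave 9.23, 10.1 and 9.26 FPKM in ND1 day 7 cells and 39.4, 39.8 and 35.9 in neurons, and Eno2, the neuronal enolase, gave 25.7, 25.4 and 25.5 and 90.8, 98.1 and 101. Both were lower in every ND1 library than in any neuron library. Of 24 heat shock and oxidative stress genes 2 were higher and 1 lower (median 0.05).

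Of 35 chromatin genes 4 were higher and 1 lower (median 0.35), with Ezh2, the Polycomb methyltransferase, at 24.1, 25.03 and 25.3 FPKM in ND1 day 7 cells and 5.90, 5.33 and 5.88 in neurons. Of 24 splicing regulators 4 were higher and 3 lower (median 0.49). Of 23 p53 and apoptosis genes 2 were higher and 0 lower (median 0.44), and of 17 Notch pathway genes 3 were higher and 1 lower (median 0.49). After subtraction of the control share the Notch list had 0 higher and 1 lower and the p53 list 0 higher and 1 lower.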
